A study of Mus musculus with 41 samples.

Results

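Ribosome footprints of mouse embryonic fibroblasts (MEFs) were compared between cells that had lost Pelo and cells labelled as having lost Upf2, to ask in which genes the 2 losses acted differently. The quantity followed throughout is a difference of effects. It is the log2 change of Pelo-/- cells against the controls of their own sequencing batch, minus the log2 change of cells labelled Upf2-/- against the controls of theirs. The members are the 12 MEF footprint samples that enter this difference, with 3 per group, of 41 samples in the series. Of 12675 genes tested over these 12 libraries, 1648 (13%) differed between the mutants at an adjusted p of at most 0.05. The difference was positive, meaning a higher value with Pelo, in 865 genes (6.82%). It was negative, meaning a higher value in cells labelled Upf2-/-, in 783 genes (6.18%). Of the genes tested, 465 passed the filter on low counts only through the Pelo-/- libraries, and 49 of them are among the calls. Among the other 12210 genes, 817 were higher with Pelo and 782 lower. Genes with a positive difference included chemokines, NF-kB feedback genes and MHC class I genes, and genes with a negative one included Gadd45g, Ddit3, Smg9 and Smg1, whose messages are known targets of nonsense-mediated decay.

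The control MEFs carried CAG-Cre ER, a ubiquitously expressed Cre that tamoxifen switches on, and no floxed allele. The Pelo-/- MEFs carried CAG-Cre ER with Pelo fl/fl (Pelo cKO in the labels), and the other mutant CAG-Cre ER with Upf2 fl/fl (Upf2 cKO). All groups were C57BL/6, were treated with tamoxifen and, per the methods of the study, came from individual mid-gestation embryos, with 2 dishes of 1 embryo pooled per footprint library. All of them, controls included, also carried n-Tr20 B6J/B6J, a mutant allele of a nervous system arginine tRNA gene, so every effect below is measured on that background. The Pelo-/- libraries and their controls were labelled batch 4, and the libraries labelled Upf2-/- and their controls batch 5. As a second readout, poly(A) mRNA had been sequenced in batch 6 from other dishes of 2 Pelo-/-, 3 Upf2-/- (as labelled) and 3 control cultures. Assigned footprint counts ranged from 16704819 to 25607974 in Pelo-/- libraries, from 11251272 to 12722830 in their controls, from 5782990 to 11061625 in libraries labelled Upf2-/- and from 14274790 to 15602201 in their controls.

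Both factors act on messages in the course of translation. Pelo, with its GTPase partner Hbs1l, enters ribosomes that have run to the end of a truncated message. It splits them so that the subunits can be used again. Upf2 links Upf1 to Upf3b in nonsense-mediated decay (NMD), the surveillance route that degrades messages whose stop codon is read as premature. NMD also sets the level of many normal messages, among them those of its own factors and of several stress genes. A ribosome footprint is a fragment of mRNA shielded by a ribosome, so its count follows both the amount of the message and how many ribosomes sit on it.

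The targeted genes were examined first. Pelo (chr13:115088355-115090186, minus strand, GRCm38) had 2.83, 3.00 and 2.01 CPM (counts scaled to a common library total) in the Pelo-/- libraries, against 34.8, 38.6 and 32.0 in their controls. The libraries labelled Upf2-/- had 29.7, 30.3 and 33.0 CPM of it, against 35.4, 34.6 and 31.2. Its difference of effects was -3.66 on the log2 scale (SE 0.175, adjusted p = 6.73e-08), with no overlap between the groups. Upf2 (chr2:5951469-6056703, plus strand) went the other way from its label. It had 114, 113 and 118 CPM in the libraries labelled Upf2-/-, against 54.7, 48.9 and 58.2 in their controls, and 53.9, 52.2 and 53.4 in Pelo-/-. Its footprint level was therefore higher in all 3 libraries labelled Upf2-/- (effect 1.09, adjusted p = 2.96e-07; difference -1.06, SE 0.101, adjusted p = 2.16e-05). Upf2 mRNA was also higher in those cells, at 63.1, 43.2 and 30.1 CPM against 15.7, 21.5 and 16.8 in controls. The counts cover the whole coding sequence and the deleted exons are not given in the sources used here, so these values do not check the deletion. The cells are called "labelled Upf2-/-" for that reason.

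The control libraries of the 2 batches bear on every difference. Control libraries with the same number differed by a chi-square of 1.12 to 1.16 per gene, whereas controls with different numbers differed by 4.06 to 12.6 within a batch and 4.15 to 11.7 across batches. The test calls 0 genes between the 2 control groups, 86 at an unadjusted p under 0.05, with edgeR. Same-numbered controls were thus close to sampling noise and may be the same 3 libraries sequenced again, in which case the Pelo and Upf2 effects share their controls. With same-numbered controls summed and counted once, 1885 genes were higher with Pelo and 1767 lower, against 865 and 783 with 12 separate libraries, and 1639 of the 1648 calls were among them. The text uses the smaller counts. Each mutant alone changed many genes: the Pelo effect was positive in 3052 genes (24.1%) and negative in 2862 (22.6%), and the Upf2 effect positive in 2780 (21.9%) and negative in 2623 (20.7%). For the difference, the 3 Pelo and 3 Upf2 log ratios did not overlap in any of the 1648 called genes, and in 5636 of all genes (44.5%). At least a 2-fold difference was reached by 367 of the genes higher with Pelo and by 155 of those lower.

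**Figure D1:**
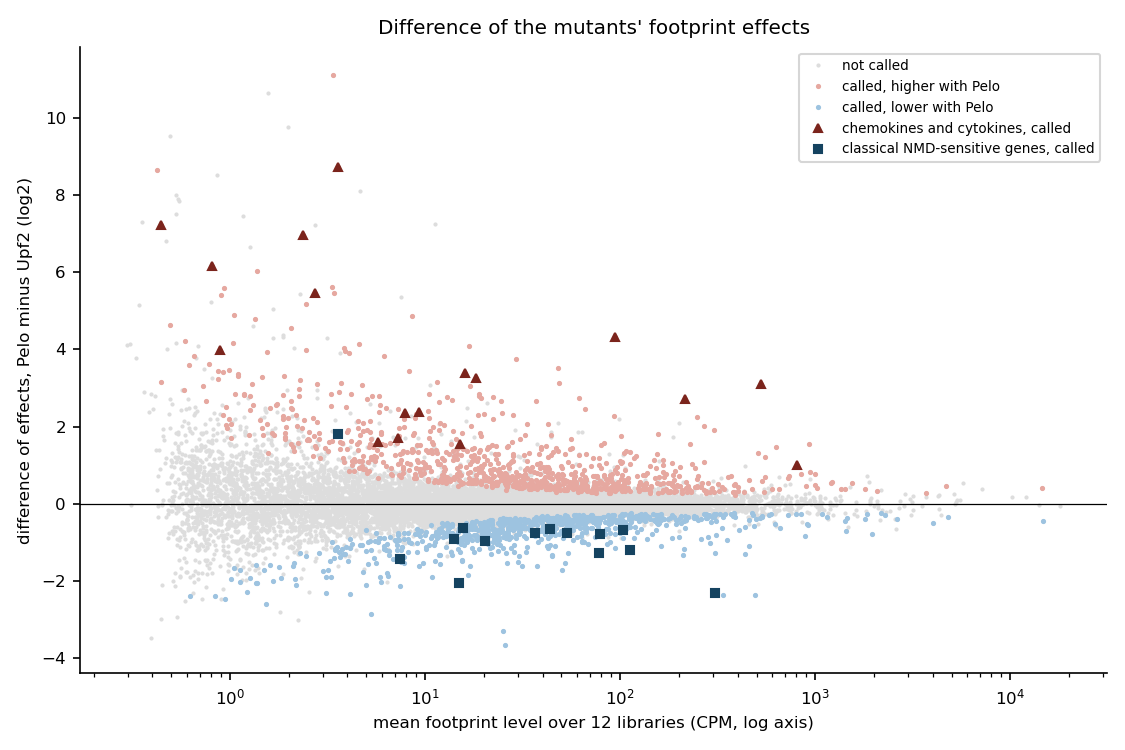
Difference of the mutants' footprint effects (Pelo minus Upf2, log2) against the mean footprint level over 12 libraries (CPM, log axis), 1 point per gene. The 17 called chemokine and cytokine genes, 6 of which passed the filter only through Pelo-/-, all lie above 0, and 12 of the 13 called NMD-sensitive genes lie below it. These counts take 1 gene model per symbol, while every called model of a listed symbol is drawn.

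Chemokines and cytokines, the secreted signals that draw in and instruct leukocytes, differed widely between the mutants. Of 33 members tested, 17 were higher with Pelo and 0 lower, and the median difference was 2.39 against 0.00 over all genes. Of the 33, 11 passed the filter on low counts only through the Pelo-/- libraries, so that they were bound to be higher there, and 6 of the 17 are among them. Of the other 22, 11 were higher and 0 lower, with a median of 1.51. The list's median Pelo effect was 3.43, and its median Upf2 effect was 0.07. Ccl2, which attracts monocytes, had 1917, 1305 and 1822 CPM in Pelo-/- libraries and 128, 99.9 and 156 in their controls. The libraries labelled Upf2-/- had 224, 177 and 143 CPM of Ccl2, against 117, 95.5 and 141 in their controls. Every Pelo-/- library was above every other library, and the difference was 3.10 (SE 0.278, adjusted p = 1.52e-05). Cxcl5, a neutrophil attractant, rose to 384, 231 and 465 CPM in Pelo-/- from 2.65, 2.05 and 3.94, and to 14.4, 9.79 and 7.83 in cells labelled Upf2-/- from 0.867 to 2.54. Its difference of 4.31 (SE 0.654, adjusted p = 8.08e-04) was the largest among the genes named by size. Cxcl1, another neutrophil attractant, had 65.5, 45.6 and 82.5 CPM with Pelo and 9.40, 4.90 and 3.71 with Upf2, from control levels of 0.819 to 1.79 (difference 3.26, adjusted p = 0.00368). For both genes the mutants changed in the same direction and differed in extent. Ccl20, the ligand of Ccr6, was different: 55.3, 33.3 and 60.8 CPM in Pelo-/- against 3.52 to 6.26 in their controls, and 3.02, 6.14 and 5.08 with Upf2 against 3.27 to 5.78 in theirs, which overlap (difference 3.40, adjusted p = 2.55e-04).

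Several members were found in Pelo-/- cells and hardly elsewhere. Il1b, the inflammatory cytokine interleukin-1 beta, had 177, 112 and 251 counts in the Pelo-/- libraries and between 0 and 6 in each of the other 9. Lcn2, an iron-sequestering acute-phase protein, had 202, 140 and 565 counts against 0 to 3. Csf3, the granulocyte growth factor, had 77, 32 and 61 counts against 0 to 4, and Ccl8, a monocyte attractant, had 33, 20 and 47 against 0 or 1. With so few counts outside Pelo-/- no fold is given, and since these genes were tested only because they are high there, no test is given either. The list's count of 17 was 12 without control 3 of the Upf2 batch.

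**Figure D2:**
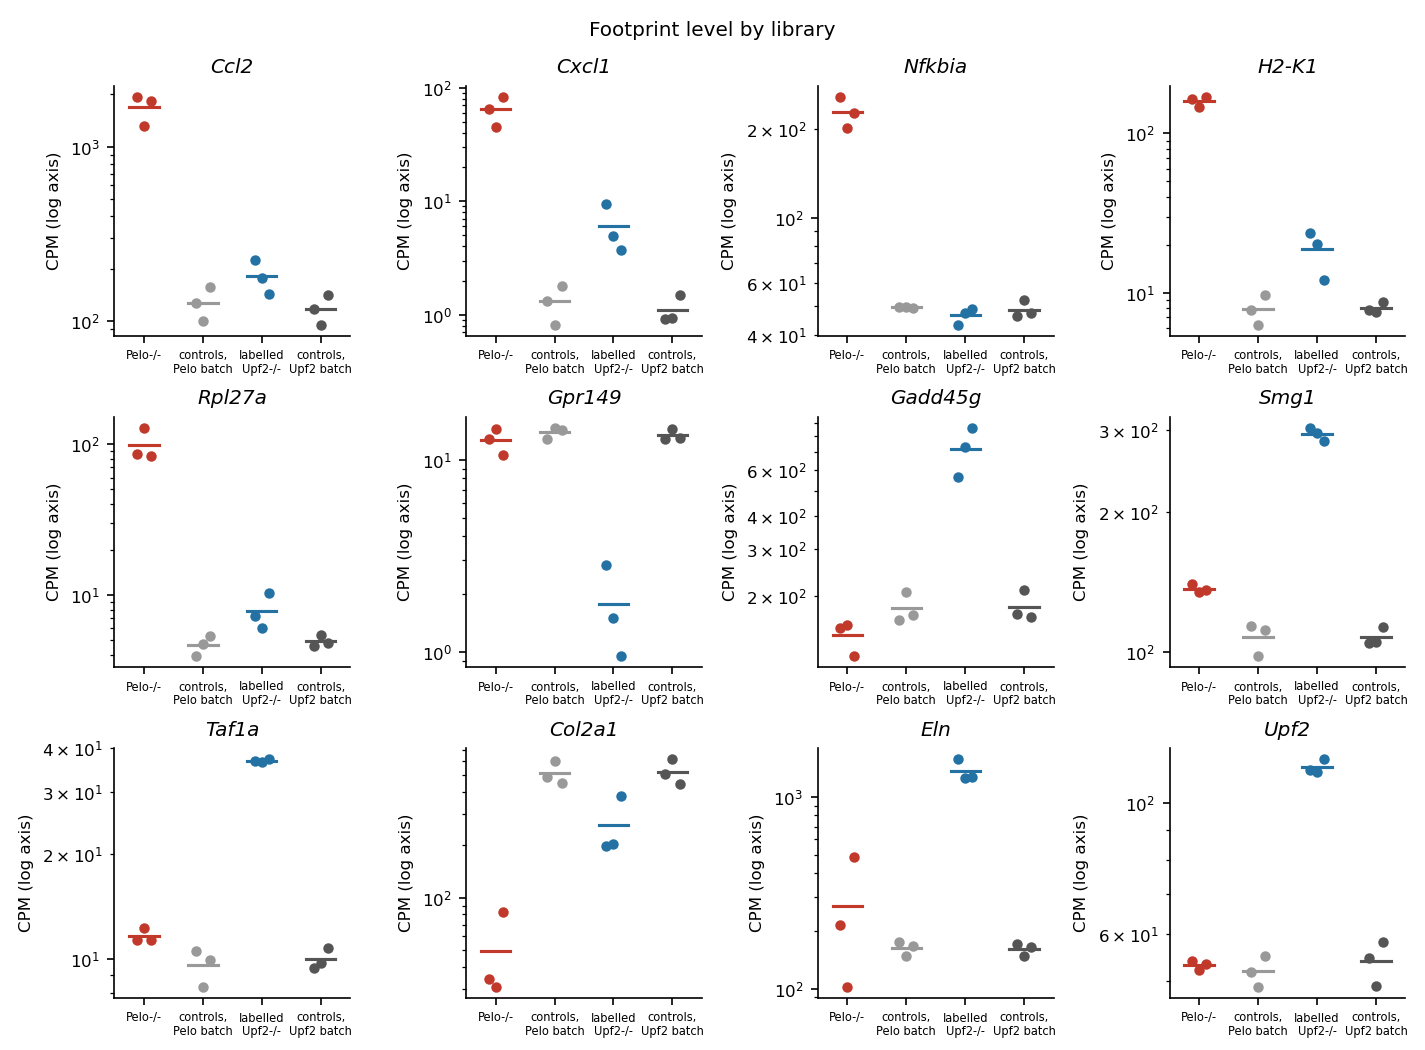
Footprint level (CPM, log axis) of 12 genes in each of the 12 libraries, 3 points per group with a bar at the mean. Ccl2, Nfkbia, H2-K1 and Rpl27a stand apart in Pelo-/- libraries, while Gadd45g, Smg1, Taf1a, Eln and Upf2 stand apart in libraries labelled Upf2-/-, where Gpr149 is low.

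NF-kB factors and their feedback genes, which report on this inflammatory transcription factor, separated the mutants with little spread. Of 22 members tested, 14 were higher with Pelo and 0 lower, with a median difference of 1.02. The list median was between 1.02 and 1.18 in the 3 Pelo-/- libraries and between -0.07 and -0.01 in the 3 labelled Upf2-/-. Nfkbia, the inhibitor that NF-kB induces against itself, had 256, 202 and 227 CPM in Pelo-/- and 49.7, 49.7 and 49.3 in their controls. It had 43.3, 47.4 and 49.0 CPM in cells labelled Upf2-/- and 46.4, 52.5 and 47.2 in controls. The Pelo-/- libraries stood above all others, which lay between 43.3 and 52.5 (difference 2.27, SE 0.123, adjusted p = 1.96e-07). Bcl3, a nuclear IkB protein, differed by 2.48 (adjusted p = 5.10e-04), Zc3h12a, an RNase that limits cytokine messages, by 2.33 (adjusted p = 2.39e-05) and Birc3, an inhibitor of apoptosis, by 1.91 (adjusted p = 3.26e-04). Zc3h12a and Birc3 had Upf2 effects of -0.23 and -0.29 that did not pass the test. Tlr2, a receptor for bacterial lipoproteins, had 41.7, 20.3 and 41.7 CPM with Pelo and 2.06 to 5.54 in the other 9 libraries (difference 3.14, adjusted p = 0.00117).

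MHC class I genes, whose products load peptides and present them to T cells, were higher with Pelo in 15 of 22 tested and lower in 2, with a median difference of 1.41. Without 3 members that passed the filter only through Pelo-/-, 14 of 19 were higher and 2 lower, and without control 1 or control 2 of both batches 9 of 22 were higher. H2-K1, a classical class I heavy chain, had 165, 147 and 168 CPM in Pelo-/- against 7.76, 6.30 and 9.68, and 23.7, 20.3 and 12.1 with Upf2 against 7.82, 7.54 and 8.67. Both mutants were above their controls, and the Pelo-/- libraries were the higher (difference 3.12, SE 0.264, adjusted p = 1.15e-05). H2-Q4 differed by 2.78 (adjusted p = 2.75e-04) and Psmb8, an immunoproteasome subunit, by 2.78 (adjusted p = 0.00458). Psmb9, another such subunit, had 7.46, 3.79 and 9.26 CPM in Pelo-/- and 0.164 to 1.85 elsewhere, and passed the filter only through Pelo-/-. Class I heavy chains are near copies of each other, so reads may be split between H2-K1 and H2-Q4. C3, the central complement component, had 45.9, 53.1 and 79.9 CPM with Pelo and 5.37, 4.01 and 3.30 with Upf2, from 1.07 to 2.40 in controls (difference 4.09, adjusted p = 2.18e-04).

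Most interferon-stimulated genes rose in both mutants. Of 42 antiviral effectors tested, 39 had a positive Pelo effect and 36 a positive Upf2 effect, with list medians of 5.59 and 3.59. The difference was positive in 41 of the 42 but passed the test in 9, and in 0 in the other direction. Lgals3bp, a secreted scavenger-receptor protein, had 796, 758 and 827 CPM with Pelo and 288, 188 and 109 with Upf2, against 34.4 to 49.9 in controls (difference 2.01, adjusted p = 0.00210). Bst2, the tetherin that holds virions to the cell, had 454, 415 and 499 CPM with Pelo and 181, 126 and 66.9 with Upf2 (difference 1.82, adjusted p = 0.00578). In both genes the 3 libraries labelled Upf2-/- were spread over more than 2-fold. The same spread ran through the list, whose median was 4.25, 3.48 and 2.42 in the 3 libraries labelled Upf2-/- and 5.49, 4.99 and 5.69 in Pelo-/-. Of 22 RNA sensors and interferon signalling genes, 11 were higher with Pelo and 0 lower (median 0.78), and of 13 interferon-induced GTPases 5 were higher and 0 lower (median 1.97). Of these lists, 3 effectors, 1 sensor and 5 GTPases passed the filter only through Pelo-/-, of which 1 effector was called.

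The interferon calls were sensitive to single libraries. Ddx58, which encodes the RNA sensor RIG-I, differed by 1.19 (adjusted p = 0.0108) and Trim25, its ubiquitin ligase, by 1.12 (adjusted p = 0.0156), and both kept the call without any 1 library. Without control 1 of both batches only 1 gene of their list was called, so they did not both keep it there. Irf7, the interferon-amplifying transcription factor, differed by 2.31 (adjusted p = 0.0255) and was at 0.107 without control 3 of the Upf2 batch. Gbp3, a guanylate-binding protein, differed by 2.74 (adjusted p = 0.0272) and was at 0.103 without that library, and Igtp, an immunity-related GTPase, by 2.36 (adjusted p = 0.0349) and was at 0.134 without control 1 of that batch. Ifi47, another such GTPase, differed by 1.83 (adjusted p = 0.00336) and had Upf2 values of 8.79 to 12.9 CPM, beside 10.9 to 13.6 in their controls. The count of effectors called higher ranged from 7, without control 1 of the Upf2 batch, to 18 when 1 library was left out, that of sensors from 6, without control 1 of the Pelo batch, to 14, and that of GTPases from 2, without Upf2 replicate 2, to 7. Without control 1 of both batches, which may be 1 library, the counts were 3, 1 and 1.

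**Figure D3:**
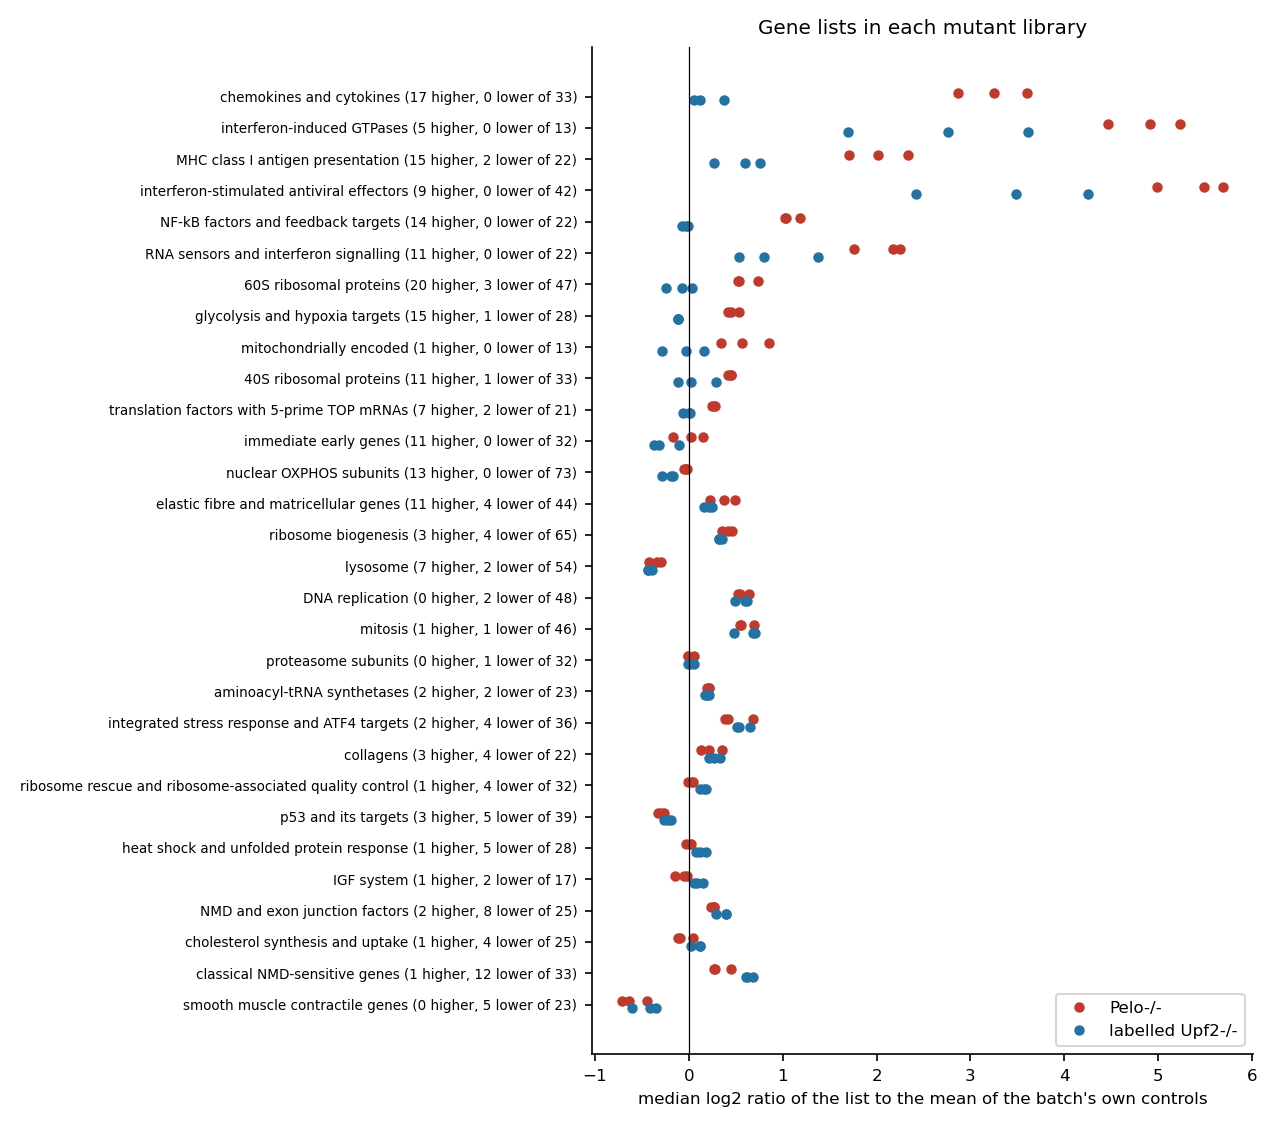
Median log2 ratio of 30 gene lists to the mean of the batch's own controls, in each of the 3 Pelo-/- libraries and the 3 labelled Upf2-/-, with the called members beside each name. The NF-kB list is at 1.02 to 1.18 in Pelo-/- and at -0.07 to -0.01 with Upf2, while DNA replication and mitosis lie at like positions in both.

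Promoters of the genes named above show which regulatory words lie in front of them. The 250 bases before the RefSeq start were searched on both strands for GGGNNTTNCC, a form of the kappa-B word bound by NF-kB, and for GAAANNGAAA, a form of the interferon-stimulated response element (ISRE), where N is any base and overlapping matches count as 1 promoter. The kappa-B word stood in 4% of 27025 RefSeq promoters, in 7.82% of the 665 matched promoters of genes higher with Pelo, in 5.7% of the 614 of genes lower with Pelo and in 4.57% of the 10016 of all tested genes. It stood in 9 of 24 matched chemokine and cytokine promoters, in 4 of 18 of the NF-kB list and in 6 of 20 of the MHC class I list. The ISRE word stood in 3.04% of all promoters, in 6.02% of genes higher with Pelo, in 1.95% of genes lower and in 2.58% of tested genes. It stood in 12 of 30 of the antiviral effectors and in 9 of 10 of the interferon-induced GTPases. In the chemokine, NF-kB and MHC class I lists it stood in 3 of 24, 0 of 18 and 3 of 20. The sequences below are from RefSeq (GRCm38.p6), 5′ to 3′ on the strand of the gene, as 100 bases around the matches, which are in capitals. The first 5 hold the kappa-B word and the last 2 the ISRE word, and all belong to genes higher with Pelo. The last 2 also rose with Upf2, as did some of the first 5, such as Cxcl1 and H2-K1.
Ccl20 (chr1:83116660-83116759, plus): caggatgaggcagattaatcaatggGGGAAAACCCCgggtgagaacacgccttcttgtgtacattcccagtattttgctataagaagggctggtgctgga
Cxcl1 (chr5:90891131-90891230, plus): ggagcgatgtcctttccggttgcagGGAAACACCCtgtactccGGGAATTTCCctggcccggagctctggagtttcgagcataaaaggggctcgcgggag
H2-K1 (chr17:34000384-34000483, minus): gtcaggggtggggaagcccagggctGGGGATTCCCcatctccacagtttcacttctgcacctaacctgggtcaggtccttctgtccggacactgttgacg
H2-Q4 (chr17:35379418-35379517, plus): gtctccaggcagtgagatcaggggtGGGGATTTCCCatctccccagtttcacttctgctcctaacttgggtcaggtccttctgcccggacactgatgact
Nfkbia (chr12:55492648-55492747, minus): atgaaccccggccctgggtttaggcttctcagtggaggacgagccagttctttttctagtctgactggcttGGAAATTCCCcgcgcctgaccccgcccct
Igtp (chr11:58199456-58199555, plus): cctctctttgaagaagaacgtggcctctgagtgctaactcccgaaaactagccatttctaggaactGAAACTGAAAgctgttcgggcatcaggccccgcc
Trim30a (chr7:104465194-104465293, minus): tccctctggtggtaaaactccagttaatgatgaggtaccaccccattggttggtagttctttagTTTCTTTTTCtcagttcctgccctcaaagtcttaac
A match is a string of letters and not a measured binding site. Trim30a, an interferon-induced ubiquitin ligase, had 34.2, 27.2 and 39.2 CPM with Pelo and 9.07, 7.30 and 3.71 with Upf2, against 0.467 to 0.845 in controls (difference 2.41, adjusted p = 0.0129; 0.0607 without control 1 of the Upf2 batch).

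Macrophage markers moved with these groups. Marker sums, and the levels of single markers in the account of cell types, are CPM of the total over all genes, slightly larger than the total of tested genes used for other levels. The summed level of 7 macrophage markers was 377 to 547 CPM in Pelo-/- libraries, against 103 to 139 in their controls, 137 to 171 in libraries labelled Upf2-/- and 103 to 134 in their controls. Of the 7, 6 were higher with Pelo. Adgre1, the surface protein F4/80, had 93.1, 60.8 and 64.1 CPM against 8.88 to 15.1 in controls, and 13.5 to 19.04 with Upf2 (difference 2.31, adjusted p = 3.42e-04). Lyz2, the lysozyme of myeloid cells, had 268, 196 and 189 CPM against 49.0 to 66.8, and 54.5 to 75.6 with Upf2 (difference 1.76, adjusted p = 2.15e-04). No macrophage marker was at 0 in all libraries. Their part in the chemokine, NF-kB, MHC and interferon differences was not tested, and in bulk samples more cells of a type and more RNA per cell cannot be told apart. The summed level of 10 fibroblast markers was 43490 to 51490 CPM in all 12 libraries, most of it from abundant genes such as Col1a1, Fn1 and Vim. Of the 10, Pdgfra (1.31, adjusted p = 0.0437) and Thy1 (1.32, adjusted p = 0.00227) were higher with Pelo and Fn1 lower (-0.44, adjusted p = 0.0243). Pdgfra, a growth factor receptor, had 247, 184 and 346 CPM with Pelo, 131, 109 and 74.4 with Upf2 and 16.6 to 31.0 in controls. Adipocyte markers summed to 18.4 to 48.3 CPM with Pelo and 9.69 to 11.5 elsewhere, and 5 of 6 erythroid markers, all haemoglobin genes, had 0 counts in each library.

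**Figure D4:**
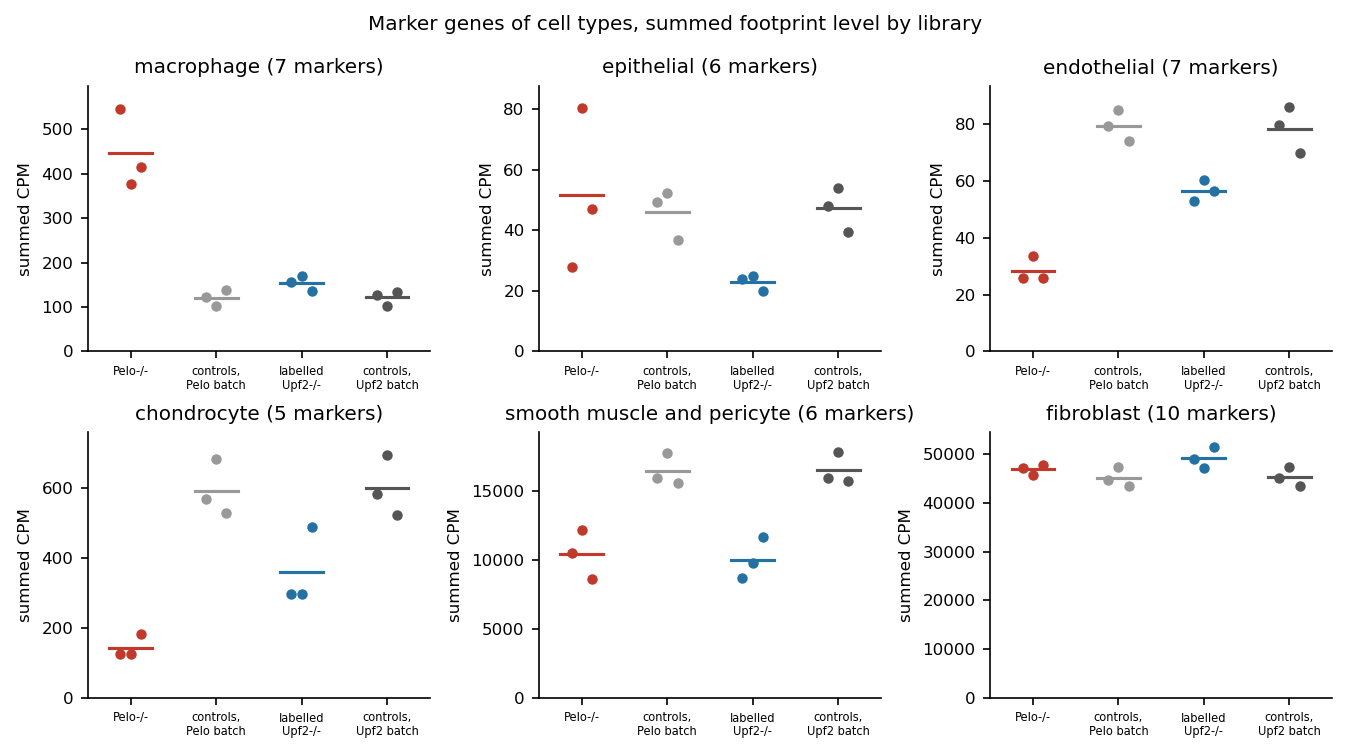
Summed footprint level (CPM) of marker genes of 6 cell types in each of the 12 libraries, 3 points per group with a bar at the mean. Macrophage markers are at 377 to 547 CPM in Pelo-/- and at 103 to 171 elsewhere, and fibroblast markers lie between 43490 and 51490 in all libraries.

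Other marker lists moved as well. Epithelial markers summed to 28.0 to 80.5 CPM with Pelo and 20.03 to 24.9 with Upf2, beside 36.8 to 54.0 in controls. Krt14, a basal keratin, was at 3.93, 24.1 and 9.33 CPM in Pelo-/- against 0.176 to 0.701 elsewhere. Of the 6 epithelial markers, 4 (Epcam, Cdh1, Krt14 and Krt5) passed the filter only through Pelo-/-. Of the others, Krt8 was higher with Pelo (difference 2.00, adjusted p = 0.0399), while Krt18, a keratin of simple epithelia, fell in both mutants and did not differ between them beyond the test (difference -0.13, adjusted p = 0.736). Endothelial markers summed to 25.8 to 33.6 CPM with Pelo, 52.9 to 60.2 with Upf2 and 69.7 to 85.9 in controls. Kdr, the main VEGF receptor, had 19.1, 23.9 and 16.5 CPM with Pelo and 43.8, 53.8 and 50.4 with Upf2, beside 45.2 to 63.6 in controls (difference -1.32, adjusted p = 0.00114). Kdr and Emcn (-1.57, adjusted p = 0.0388), which carry most of the sum in controls, were the 2 of 4 tested endothelial markers called. Cdh5, the cadherin of endothelial junctions, went the other way, at 2.56 to 4.48 CPM with Pelo and 0.244 to 0.882 elsewhere, and passed the filter only through Pelo-/-. Pecam1, too low to be tested, was at 0.666 to 1.37 CPM with Pelo and 0 to 0.631 elsewhere. Chondrocyte markers summed to 124 to 182 CPM with Pelo, 296 to 490 with Upf2 and 524 to 695 in controls. Col2a1 made up most of that sum in controls, at 444 to 614 CPM of the total over all genes, and was the 1 marker of 5 called, whereas Sox9, the regulator of cartilage genes, was at 57.5 to 75.5 CPM with Pelo and 48.0 to 57.9 in controls (difference 0.23, adjusted p = 0.356). The median difference of the list was 0.23.

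Genes of ribosomal proteins were more often higher than lower with Pelo. Of 47 genes of the large (60S) subunit, 20 were higher and 3 lower, with a median difference of 0.65, and of 33 of the small (40S) subunit 11 were higher and 1 lower, with a median of 0.38. The 60S median was 0.74, 0.54 and 0.52 in Pelo-/- libraries and -0.24, 0.03 and -0.07 in those labelled Upf2-/-. Rpl27a, of the large subunit, had 86.2, 127 and 83.5 CPM with Pelo, 3.97, 4.75 and 5.38 in their controls, 7.22, 6.05 and 10.3 with Upf2 and 4.58, 5.47 and 4.79 in their controls. All 3 Pelo-/- libraries were far above the rest (difference 3.76, SE 0.318, adjusted p = 1.15e-05), whereas Rpl27a mRNA was at 330 and 382 CPM with Pelo and 351 to 438 with Upf2 (difference -0.14, adjusted p = 0.432). Rps25, of the small subunit, differed by 1.02 (adjusted p = 0.0140). Rps12 went the other way, with 7.76, 6.79 and 6.83 CPM in Pelo-/- and 19.5, 18.6 and 21.0 with Upf2, beside 5.21 to 6.84 in controls (difference -1.55, adjusted p = 1.25e-04). Rpl29 differed by 2.67 (adjusted p = 0.0211), with 0.168, 0.178 and 1.51 CPM in libraries labelled Upf2-/-. It differed by 4.36 without Upf2 replicate 3, and its adjusted p was 0.0774 without Upf2 replicate 2.

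These genes have many near-identical processed copies in the genome, so footprint reads that map to several places may be missing or misplaced, and single ribosomal protein genes are uncertain. Their mRNA, counted by another method, did not differ in this direction: of 47 large-subunit genes 1 was higher with Pelo and 10 lower, where 15% and 20.9% of all genes with both readouts were higher and lower. Rpl29 was the 1 that was higher, as its mRNA was at 83.4, 76.8 and 78.4 CPM with Upf2 and at 462 to 689 in the other 5 libraries (difference 2.60, adjusted p = 2.53e-07). Without Upf2 replicate 1 the 60S count of genes higher with Pelo was 13 and the 40S count 7, and without control 1 of both batches they were 8 and 3. Of 21 translation factors with 5′ TOP messages, which share the ribosomal proteins' growth control, 7 were higher with Pelo, or 4 without control 2 of the Pelo batch and 0 without control 1 of both batches, and 2 lower. Eef1g, an elongation factor subunit, differed by 0.76 (adjusted p = 0.0119) and Eif4a2, an RNA helicase, by -1.20 (adjusted p = 2.88e-05). Eif4a2 had 74.1, 70.7 and 61.4 CPM with Pelo and 146, 170 and 170 with Upf2, on either side of controls at 103 to 118.

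Glycolysis and hypoxia genes, which carry the breakdown of glucose and its response to low oxygen, were higher with Pelo in 15 of 28 tested and lower in 1 (median 0.59). The list median was 0.42 to 0.54 in Pelo-/- libraries and -0.12 to -0.11 in those labelled Upf2-/-. Slc16a3, the lactate exporter, had 123, 143 and 104 CPM with Pelo and 44.0, 41.9 and 32.4 with Upf2, beside 26.7 to 36.9 in controls (difference 1.67, adjusted p = 1.75e-04). Bnip3, a mitochondrial death and mitophagy protein, had 7.58, 7.41 and 6.91 CPM with Pelo and 1.68, 2.85 and 1.37 with Upf2, beside 2.82 to 3.94 in controls, which overlap the latter (difference 1.86, adjusted p = 0.00198). Pdk1, a pyruvate dehydrogenase kinase, differed by 1.56 (adjusted p = 0.00555). Of 73 nuclear genes for oxidative phosphorylation, 13 were higher with Pelo and 0 lower, with a small median of 0.17. With Upf2, 36 of the 73 had a negative effect, and with Pelo 14. Over all genes, 20.7% had a negative Upf2 effect and 22.6% a negative Pelo effect. Cox7a2, a subunit of cytochrome c oxidase, had 169, 153 and 139 CPM with Pelo against 146, 146 and 151 in their controls, and 78.9, 95.9 and 97.9 with Upf2 (difference 0.73, adjusted p = 0.00114). Without Upf2 replicate 1 the oxidative phosphorylation count was 8, and without control 1 of both batches 3. Of 13 mitochondrially encoded genes 1 was higher with Pelo and 0 lower, with a median of 0.50, or 11 and 0 with controls counted once.

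Immediate early genes, which respond first to growth signals and stress, were higher with Pelo in 11 of 32 and lower in 0. Over all genes, 6.82% were higher and 6.18% lower. The list's median difference was 0.18, with a median Pelo effect of -0.02 and a median Upf2 effect of -0.20. The Pelo effect was positive in 10 and negative in 8, and the Upf2 effect positive in 5 and negative in 14. The list median was -0.17 to 0.15 in Pelo-/- libraries and -0.37 to -0.10 in those labelled Upf2-/-, which overlap. Junb, an AP-1 subunit, had 270, 268 and 246 CPM with Pelo and 117, 132 and 145 with Upf2, on either side of 166 to 183 in controls (difference 1.04, SE 0.100, adjusted p = 2.20e-05). Fosl1, its AP-1 partner, differed by 1.18 (adjusted p = 8.59e-04) and Cebpd, an inflammatory transcription factor, by 1.28 (adjusted p = 4.60e-04). Ier3, an early survival gene, differed by 1.28 (adjusted p = 0.00167), with a Pelo effect of 0.00 and an Upf2 effect of -1.27. Cebpb, which pairs with Cebpd, rose in both mutants, to 232 to 280 CPM with Pelo and 96.8 to 102 with Upf2 from 46.7 to 54.9 (difference 1.33, adjusted p = 1.93e-05). Without control 1 of the Pelo batch the immediate early count was 7, and without control 1 of both batches 6.

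Other genes with the largest positive differences included secreted and matrix proteins and a receptor. Tnn, the matricellular protein tenascin-N, had 185, 166 and 141 CPM with Pelo and 16.5, 9.70 and 12.6 with Upf2, beside 6.42 to 8.47 in controls (difference 3.53, SE 0.229, adjusted p = 1.34e-06). Mmp3, the protease stromelysin-1, had 67.3, 58.9 and 41.9 CPM with Pelo and 5.22 to 6.38 with Upf2 (difference 3.05, adjusted p = 9.34e-05). Sod3, the extracellular superoxide dismutase, had 54.9, 40.3 and 66.3 CPM with Pelo and 5.79 to 10.7 with Upf2, beside 5.60 to 8.03 in the controls of the latter (difference 2.83, adjusted p = 9.79e-05). Gpr149, an orphan receptor, fell with Upf2 and had 12.8, 14.5 and 10.6 CPM with Pelo, 12.9 to 14.6 in controls, and 2.85, 1.51 and 0.961 with Upf2 (difference 2.84, adjusted p = 4.21e-05).

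In the other direction, the genes higher in cells labelled Upf2-/- included those by which NMD is usually followed. Of 33 classical NMD-sensitive genes tested, 12 were lower with Pelo, that is higher with Upf2, and 1 was the reverse, with a median difference of -0.21. The Upf2 effect was positive in 27 and negative in 0, with a median of 0.60. The Pelo effect was positive in 20 and negative in 2, with a median of 0.36. Gadd45g, a growth arrest gene whose message NMD degrades, had 563, 732 and 858 CPM with Upf2 against 166 to 210 in its controls. It had 152, 156 and 119 CPM with Pelo against 163, 208 and 170. The Upf2 libraries stood above all others and the Pelo effect of -0.34 did not pass the test (difference -2.32, SE 0.211, adjusted p = 1.55e-05). Cirbp, a cold-inducible RNA-binding protein, had 12.6, 10.7 and 13.2 CPM with Upf2 and 4.98 to 6.73 with Pelo (difference -1.43, adjusted p = 7.05e-04). The exception was Upp1, a uridine phosphorylase, at 7.25 to 8.32 CPM with Pelo and 1.42 to 2.52 with Upf2 (difference 1.81, adjusted p = 0.00196).

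The NMD factors themselves showed the same direction. Of 25 NMD and exon junction factors, 8 were lower with Pelo and 2 higher, with a median difference of -0.18 and positive effects in 15 with Pelo and 16 with Upf2. Smg1, the kinase that phosphorylates Upf1, had 302, 295 and 283 CPM with Upf2 against 105 to 113 in its controls, and 140, 134 and 136 with Pelo against 98.3 to 114. Both mutants were above their controls, by 1.44 and 0.34 on the log2 scale, and the difference was -1.10 (SE 0.0896, adjusted p = 1.15e-05). Smg9, which regulates that kinase, had 62.3, 62.2 and 58.8 CPM with Upf2 and 23.03, 22.9 and 22.4 with Pelo, from 15.0 to 19.9 in controls (difference -1.35, adjusted p = 3.12e-05). Upf3b, which binds the exon junction complex, had 33.6, 29.5 and 27.6 CPM with Upf2 and 15.0, 15.0 and 17.3 with Pelo, beside 15.9 to 19.1 in controls (difference -0.96, adjusted p = 8.98e-04). Upf2, described first, belongs to this list.

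Of 36 genes of the integrated stress response, 4 were lower with Pelo and 2 higher, beside 6.18% and 6.82% of all genes. Ddit3, the gene of the transcription factor CHOP, is listed under 2 gene models that may share reads. One, whose longest annotated coding sequence is 102 bases and so too short to encode CHOP, had 31.2, 34.1 and 26.6 CPM with Upf2 and 7.88, 6.79 and 7.02 with Pelo, beside 9.44 to 12.4 in controls (difference -2.05, SE 0.182, adjusted p = 1.48e-05), and the other differed by -0.93 (adjusted p = 0.00226). The first is the one that the lists and the naming by size take for Ddit3, and both were lower with Pelo. Nupr1, a stress-induced chromatin protein, had 86.0, 102 and 85.4 CPM with Upf2 and 27.2, 27.2 and 26.3 with Pelo, on either side of 37.0 to 47.0 in controls (difference -1.72, SE 0.137, adjusted p = 1.02e-05). Nupr1 thus fell in one mutant and rose in the other.

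Of the other genes with the largest negative differences, several rose with Upf2, while Col2a1 and Myom1, described below, fell in both mutants. Taf1a, a subunit of the RNA polymerase I initiation factor, had 36.8, 36.7 and 37.2 CPM with Upf2 and 11.4, 12.3 and 11.3 with Pelo, from 8.35 to 10.8 in controls (difference -1.61, adjusted p = 1.55e-05). Bbs4, of the ciliary BBSome, had 22.2, 23.3 and 20.7 CPM with Upf2 and 7.34, 5.94 and 5.09 with Pelo (difference -1.89, adjusted p = 2.35e-04). Thoc2l, a copy of the mRNA export gene Thoc2 that may share its reads, had 37.9, 38.3 and 30.6 CPM with Upf2 and 11.4 to 12.7 with Pelo (difference -1.84, adjusted p = 1.22e-05). Wdfy1, an endosomal adaptor of Toll-like receptors, had 4.81, 3.79 and 3.94 CPM with Pelo, 26.1 to 28.8 in controls and 29.7, 32.7 and 61.4 with Upf2 (difference -3.30, adjusted p = 1.55e-05). Next to Pelo it had the largest negative difference among called genes. Its mRNA was at 13.4 and 13.2 CPM with Pelo, 109, 103 and 89.9 with Upf2 and 46.9 to 50.5 in controls.

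Single matrix genes differed between the mutants in both directions. Eln, the elastin precursor, had 1569, 1247 and 1275 CPM with Upf2 against 147 to 170 in its controls, and 216, 102 and 486 with Pelo against 148 to 174.5. The Pelo-/- libraries fell on both sides of their controls and the Pelo effect of 0.72 did not pass the test (difference -2.36, SE 0.505, adjusted p = 0.00733). With control 1 left out of both batches its adjusted p was 0.0505, above the threshold. Col2a1, the collagen of cartilage, fell with both, to 34.0, 31.0 and 82.4 CPM with Pelo and 198, 203 and 381 with Upf2 from 447 to 617 (difference -2.37, adjusted p = 0.00340). Col8a2 was at 75.2, 75.5 and 75.8 CPM with Upf2 and 17.98, 17.5 and 30.5 with Pelo (difference -1.62, adjusted p = 7.85e-04), and Col11a1, a fibrillar collagen, differed by -1.30 (adjusted p = 1.01e-04). Of 22 collagens, 3 were higher, or 0 without Pelo replicate 1, and 4 lower with Pelo, with a median difference of -0.04. Of 44 elastic fibre and matricellular genes 11 were higher and 4 lower, with a median of 0.13. Over all genes, 6.82% were higher and 6.18% lower. Without control 1 of the Upf2 batch the latter count of 11 was 5, and without control 1 of both batches the counts of 11 and 4 were 3 and 0.

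Smooth muscle contractile genes were lower with Pelo in 5 of 23 tested and higher in 0, beside 6.18% and 6.82% of all genes. Both mutants moved down: 16 had a negative Pelo effect and 15 a negative Upf2 effect. The list median was -0.71 to -0.44 in Pelo-/- libraries and -0.60 to -0.35 in those labelled Upf2-/-, which overlap. In mRNA 7 of 23 were higher with Pelo and 0 lower, where 15% and 20.9% of all genes with both readouts were higher and lower. Myh11, the smooth muscle myosin, had 137, 138 and 82.5 CPM with Pelo and 230, 291 and 343 with Upf2, beside 183 to 275 in controls (difference -1.32, adjusted p = 0.00910). Myom1, a myosin-binding protein of the sarcomere that is not in this list, had 5.71, 8.94 and 3.86 CPM with Pelo and 12.6, 17.9 and 24.2 with Upf2, both below 44.6 to 57.7 in controls (difference -1.61, adjusted p = 0.00615). Smooth muscle and pericyte markers summed to 8582 to 12180 CPM with Pelo, 8660 to 11650 with Upf2 and 15590 to 17850 in controls, nearly all of it Acta2, at 7286 to 16270 CPM over the 12 libraries. Of these 6 markers, 3 were lower with Pelo, namely Myh11, Rgs5 (-1.55, adjusted p = 0.0206) and Cspg4 (-0.62, adjusted p = 0.00102), and the median difference was -0.97. Without control 2 of the Pelo batch, or control 1 of both batches, the count of 5 was 1.

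DNA replication and mitosis genes were mostly higher in both mutants. The background for the counts that follow is 13% of genes in either direction. DNA replication genes had a positive Pelo effect in 41 of 48 and a positive Upf2 effect in 43, with medians of 0.57 and 0.56, and 2 of 48 differed. Mitosis genes had positive effects in 43 of 46 in each mutant, with medians of 0.61 and 0.61, and 2 differed. Ribosome biogenesis genes had medians of 0.40 and 0.36, with 3 of 65 higher and 4 lower with Pelo. Lysosome genes had medians of -0.36 and -0.44, with 7 of 54 higher and 2 lower. Of these, Ctsc, the lysosomal protease that activates serine proteases of leukocytes, had the largest difference (1.19, adjusted p = 6.86e-05). Of 32 proteasome subunits 1 differed, and of 23 aminoacyl-tRNA synthetases 2 were higher and 2 lower. Among 32 genes of ribosome rescue and its quality control, Pelo itself apart, Gigyf2, Vcp and N4bp2 were lower with Pelo, by -0.48, -0.59 and -0.67 (adjusted p of 0.00164, 0.00760 and 0.0169), and Rack1, a protein of the small ribosomal subunit, was higher by 0.38 (adjusted p = 0.00983). Targets of p53 had negative effects in 23 of 39 with Pelo and 19 with Upf2, and 3 were higher and 5 lower with Pelo, or 0 and 1 without control 1 of both batches. When 1 library was left out, the count of lysosome genes higher with Pelo was 4 to 10, that of biogenesis genes 1 to 6 and that of p53 targets 0 to 3. Without control 1 of the Pelo batch the counts of synthetases were 1 and 0.

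The genes on either side also differed in features that the test did not use. The longest annotated coding sequence (Gencode M21, available for at least 99.6% of each set) had a median of 1213 bases in genes higher with Pelo, 1614 in genes lower with Pelo and 1426 in all tested. Of 983 genes with up to 500 coding bases, 12.3% were higher and 4.88% lower with Pelo. Of 986 genes with more than 4000 coding bases, 3.85% were higher and 11.7% lower. Over the classes from short to long, the median Upf2 effect went from -0.16 to 0.12 and the median Pelo effect from -0.04 to 0.01. A transcript annotated as an NMD substrate was present in 36.4% of genes lower with Pelo, 21.8% of genes higher with Pelo and 28% of all. These shares are descriptions without a test. Within 5 Mb of Pelo, 3 of 34 other tested genes were higher and 1 lower, and within 5 Mb of Upf2 2 of 32 were higher and 2 lower, in both cases near the 13% of all genes.

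The mRNA of other dishes gave a second view of the same contrast. Between Pelo-/- and Upf2-/- (as labelled), 1958 of 15791 genes (12.4%) had more mRNA with Pelo and 3102 (19.6%) less. This imbalance depends on the scaling, since RLE size factors gave 2366 and 2640, and DESeq2 2435 and 2685. Of the 839 genes that were higher with Pelo in footprints and measured in mRNA, 220 (26.2%) had more mRNA with Pelo and 66 (7.87%) less, with a median difference of 0.19. Of the 781 that were lower, 84 (10.8%) had more and 362 (46.4%) less, with a median of -0.40. The background among 12397 genes with both readouts was 15% more and 20.9% less. No library is shared between the readouts.

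The named genes that were higher with Upf2 in footprints were not all higher in mRNA. Gadd45g mRNA was at 1585, 1277 and 1702 CPM with Upf2, at 113 and 134 with Pelo and at 97.0 to 121 in controls (difference -3.63, adjusted p = 7.69e-07). Differences in mRNA were -1.66 for Smg9 (adjusted p = 5.09e-05), -1.42 for Smg1 (adjusted p = 0.00126) and -1.73 for Cirbp (adjusted p = 5.52e-05). Outside the NMD lists they were -2.55 for Taf1a (adjusted p = 2.24e-06), -2.92 for Bbs4 (adjusted p = 1.86e-05) and -3.13 for Nupr1 (adjusted p = 9.27e-06). Some matrix and contractile genes did not follow: the mRNA difference had the other sign for Myom1 (0.71, adjusted p = 0.00406) and Col2a1 (0.45, adjusted p = 0.0467), and was 0.33 for Eln (adjusted p = 0.418) and 0.01 for Col8a2 (adjusted p = 0.970). Of the 32 NMD-sensitive genes measured, 21 had less mRNA with Pelo and 0 more. Ddit3 mRNA was not measured for the model with the footprint difference of -2.05, and that of its other model differed by -3.01 (adjusted p = 1.95e-06).

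Inflammatory genes were mixed in mRNA. Of 22 chemokines and cytokines measured in mRNA, 4 were higher and 8 lower with Pelo. In footprints 17 of 33 were higher and 0 lower. Of those 33, 11 had passed the filter only through Pelo-/-, and among the other 22 the counts were 11 and 0. The genes measured in mRNA need not be the same 22. Ccl2 mRNA was at 11.6 and 12.8 CPM with Pelo, 18.6, 28.8 and 21.4 with Upf2 and 22.9 to 34.8 in controls, so that the order was the reverse of that in footprints (difference -0.92, adjusted p = 0.00950). Cxcl5 mRNA was at 0.441 and 0.347 CPM with Pelo and 0.331 to 0.442 in controls. H2-K1 mRNA was at 10.2 and 8.45 CPM with Pelo and 6.21 to 7.20 with Upf2 (difference 0.46, adjusted p = 0.0671). Nfkbia mRNA was at 29.2 and 31.8 CPM with Pelo and 29.7 to 32.2 in controls, and lower with Upf2 at 22.6 to 23.2 (difference 0.42, adjusted p = 0.0153). Tlr2 mRNA was also higher with Pelo, by 0.92 (adjusted p = 0.0354). Of 22 genes of the NF-kB list 4 were higher and 5 lower, with a median of 0. These counts are near the shares of all genes with both readouts, 15% higher and 20.9% lower. Of 39 antiviral effectors, 0 were higher and 21 lower with Pelo, with a median of -1.31. Lgals3bp mRNA was at 15.8 and 13.4 CPM with Pelo, 13.3 to 23.4 with Upf2 and 7.61 to 13.0 in controls. The footprint and mRNA libraries came from different dishes and batches, so a change in translation and a difference between cultures cannot be told apart.

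**Figure D5:**
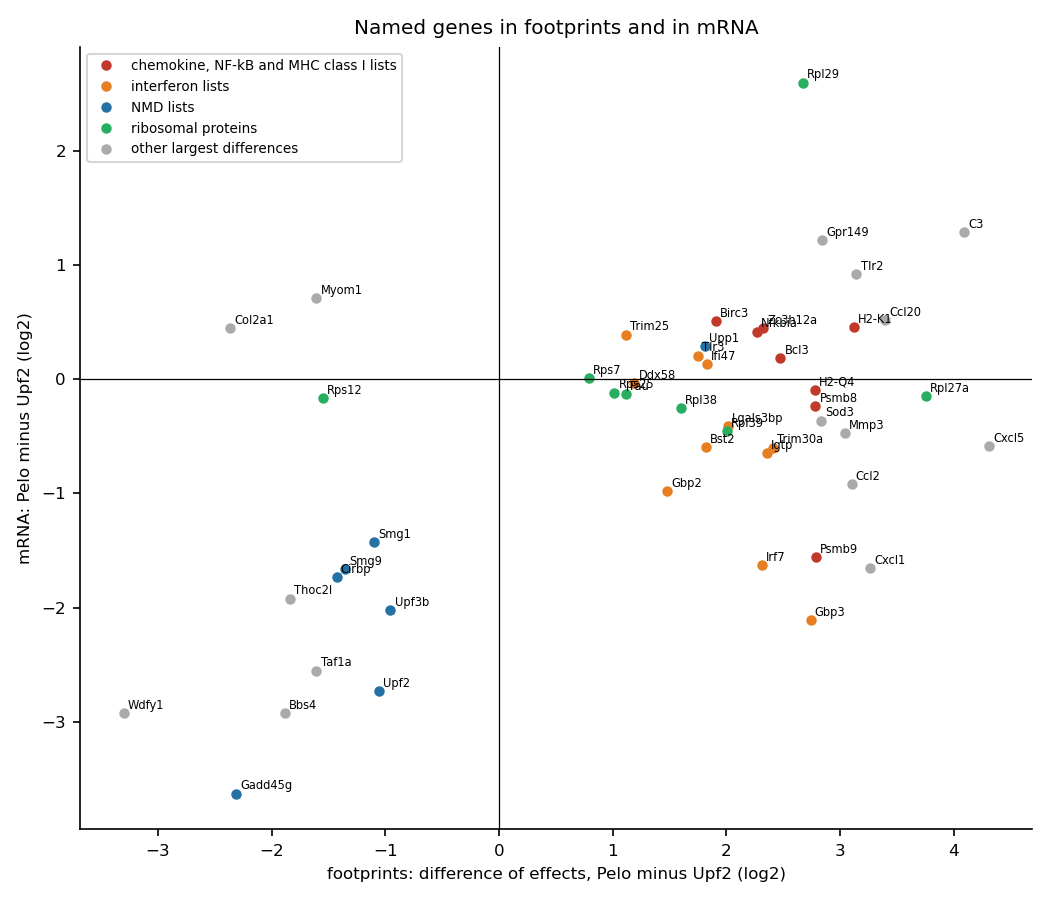
Difference between the mutants in footprints (horizontal, log2) and in mRNA (vertical, log2) for named genes of the chemokine, NF-kB, MHC, interferon, NMD and ribosomal protein lists and for the largest differences. Genes of the NMD lists other than Upp1 lie at the lower left, as Gadd45g at -2.32 and -3.63, and chemokine, NF-kB, MHC and interferon genes lie at the right on both sides of 0, as Ccl2 at 3.10 and -0.92.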

How the data were processed

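Footprint values are whole-number counts per gene over coding sequence, deposited per library. Per the labels and methods the authors removed rRNA, tRNA and snoRNA reads with Bowtie2 2.2.3, aligned to mm10 with HISAT2 2.1.0 and counted with featureCounts. For mRNA (stranded poly(A) kit), the authors deposited estimated counts per transcript from kallisto 0.42.4, which were summed per gene and rounded. The other 21 samples were not used here. Genes were named from the mRNA files, and 100 histone genes were left out.

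Differences were tested with edgeR 4.0.16 (filterByExpr, TMM, quasi-likelihood test, two-sided, Benjamini-Hochberg over all genes) in R 4.3.3: a contrast of 4 group means over 12 footprint libraries, and of 3 over 8 mRNA libraries. SE is the log2 value divided by the square root of F, and CPM uses TMM-scaled totals of the tested genes, or, for marker sums and markers in the account of cell types, of all genes. A gene was called at an adjusted p of at most 0.05. Each library's log ratio is its log2 CPM (prior count 1) minus the mean of its batch's controls. The fits were tested on simulated data. Members that pass filterByExpr only with the Pelo-/- libraries were counted apart, a check added after seeing the data. Chi-square between controls used genes with at least 20 summed counts. Replicates came from separate embryos per the methods.

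The members and lists were chosen with earlier results of these data known. Named are Pelo and Upf2, the 12 largest differences in each direction (called, at least 10 CPM on average, log ratios of the mutants not overlapping, no Gm, -ps or Rik symbols), and up to 4 called members of each list by size. An item named by this rule is not reported here. Markers given with values are from the marker lists. Alternatives were DESeq2 1.42.0, other scalings and filters, histones kept, a replicate block, controls counted once and libraries left out.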

Additional observations from a re-analysis of the deposited data

Results flagged for a closer look

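By a test of the difference itself, the effects of the 2 mutants were unequal in 865 genes with a higher and 783 with a lower value for Pelo. Among genes named by size, the differences on the log2 scale (Pelo minus Upf2) were 4.31 for Cxcl5, 4.09 for C3, 3.76 for Rpl27a, 3.53 for Tnn, 3.40 for Ccl20, 3.26 for Cxcl1, 3.14 for Tlr2, 3.12 for H2-K1, 3.10 for Ccl2, 3.05 for Mmp3, 2.84 for Gpr149 and 2.83 for Sod3. In the other direction they were -3.66 for Pelo, -3.30 for Wdfy1, -2.37 for Col2a1, -2.36 for Eln, -2.32 for Gadd45g, -2.05 for Ddit3, -1.89 for Bbs4, -1.84 for Thoc2l, -1.72 for Nupr1, -1.62 for Col8a2, -1.61 for Myom1 and -1.61 for Taf1a. Upf2, named as a target and not by size, differed by -1.06, and stands out because its own footprints and mRNA were higher in the cells labelled as lacking it. Those counts cover the whole coding sequence and do not check the deletion. In the same footprint libraries 27 of 33 classical NMD-sensitive genes had a positive Upf2 effect and 0 a negative one, beside 21.9% and 20.7% of all genes.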

How the results depend on the processing

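None of the 1648 footprint differences had the opposite sign under an alternative that gave it a value. Genes higher and lower with Pelo numbered 865 and 783. With controls counted once they were 1885 and 1767, and with control 1 left out of both batches 371 and 313. Leaving out single libraries, or 1 control of both batches, gave 371 to 946 higher and 313 to 797 lower, the lowest for 1 library being 603 and 494 without control 1 of the Upf2 batch. DESeq2 gave 918 and 827, and library totals alone 790 and 935. Counts of the Pelo and of the Upf2 effect stayed within 1.5 times. The mRNA counts rest on 2 Pelo samples: leaving out 1 library gave 854 to 2318 higher and 1101 to 3370 lower, with 1138 and 1294 without Pelo replicate 1 and 854 and 1101 without Pelo replicate 2, and 1 called gene changed sign in the latter; the lone sample is assumed to vary like the other groups.

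Replicate numbers are shared by the groups. With a replicate block, 947 genes were higher and 871 lower. Deviations of same-numbered samples correlated at 0.31 to 0.52 between the 2 control groups, and at -0.15 to 0.14 between a mutant and any other group, so the numbers were not taken to pair mutants with controls. Of 123 called genes named by the rule, 82 kept the call without any single footprint library. The other 41 lost it at least once, and all 41 were called with controls counted once. Leaving out a control of both batches removed more: 681 of all 1648 calls were kept without control 1, 1117 without control 2 and 1092 without control 3. The causes were not tested.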
